A study of Rattus norvegicus with 6 samples.

Results

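Creatine kinases, the creatine transporter, myoglobin and the adenylate enzymes buffer the energy and oxygen supply of the working heart muscle cell. The 7 genes of this group were listed by symbol, with earlier results of these data known: Ckm, Ckmt2, Ckb, Slc6a8, Mb, Ak1 and Ampd3. Matching them to the symbols of the expression table found 6 of the 7 among 22250 genes, and Ak1 was not analysed here. Polyadenylated RNA from left ventricular myocardium was sequenced from 3 young donor hearts (10 weeks) and 3 aged donor hearts (1 year) of Sprague-Dawley rats, all labelled wild type. In both groups the donor hearts had been kept in the cold and transplanted heterotopically into young recipients, and the tissue was taken on postoperative day 1. Both groups were therefore transplanted grafts, and neither was an untransplanted heart. The young hearts carried the numbers 3, 13 and 15 and the aged hearts the numbers 3, 4 and 7, and values are given in that order throughout. A shared number 3 marks no shared animal. The sources used here do not say whether the hearts of a group were handled separately after removal, so p-values measure only the spread between these samples.

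In cardiomyocytes, ATP is regenerated at the myofibril from phosphocreatine by the muscle creatine kinase Ckm, and phosphocreatine is made at the mitochondrial inner membrane by the sarcomeric mitochondrial creatine kinase Ckmt2. Ckb is the brain-type cytosolic isoform, which many other cell types also make, and Slc6a8 carries creatine into the cell, since heart muscle makes little of its own. Mb encodes myoglobin, the oxygen-binding protein of striated muscle. Adenylate kinases exchange phosphates between adenine nucleotides when ATP falls, and AMP deaminases such as Ampd3 convert the resulting AMP to IMP.

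Promoter sequences were read for the members because some of them moved together across hearts, and those of 3 genes with nearly parallel levels (Ckm, Ckmt2 and Mb) are shown with that of Ckb, whose level ran differently. Each is the 250 bases before the start of the gene in RefSeq on GRCr8, 5′ to 3′ on the gene's own strand. Capitals mark matches, on either strand, to CANNTG (the E-box), TATANA, CCCACCCCC or the MEF2 consensus. Ckm lies at chr1:88189211-88189460 (plus strand), Ckmt2 at chr2:24845512-24845761 (minus strand), Mb at chr7:110647743-110647992 (minus strand) and Ckb at chr6:136553465-136553714 (minus strand).
Ckm: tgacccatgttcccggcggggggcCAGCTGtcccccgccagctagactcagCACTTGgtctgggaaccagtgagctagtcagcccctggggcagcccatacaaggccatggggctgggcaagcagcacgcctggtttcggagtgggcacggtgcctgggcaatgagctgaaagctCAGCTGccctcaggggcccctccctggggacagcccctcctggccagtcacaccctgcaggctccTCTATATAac
Ckmt2: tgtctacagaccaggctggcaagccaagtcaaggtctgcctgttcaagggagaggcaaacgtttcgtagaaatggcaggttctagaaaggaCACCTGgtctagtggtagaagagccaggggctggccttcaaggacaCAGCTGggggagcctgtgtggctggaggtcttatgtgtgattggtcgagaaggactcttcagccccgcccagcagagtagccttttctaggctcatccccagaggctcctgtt
Mb: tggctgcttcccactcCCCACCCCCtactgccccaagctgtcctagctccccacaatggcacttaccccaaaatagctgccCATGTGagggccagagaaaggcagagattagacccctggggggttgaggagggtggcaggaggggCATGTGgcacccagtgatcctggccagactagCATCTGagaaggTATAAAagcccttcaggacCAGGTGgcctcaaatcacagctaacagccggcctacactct
Ckb: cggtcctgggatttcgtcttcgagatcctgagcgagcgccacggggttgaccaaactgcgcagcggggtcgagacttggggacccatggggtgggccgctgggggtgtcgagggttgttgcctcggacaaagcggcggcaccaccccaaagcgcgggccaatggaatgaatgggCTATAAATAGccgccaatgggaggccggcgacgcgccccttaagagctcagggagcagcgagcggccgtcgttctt
The Ckm window held 3 E-boxes, the Ckmt2 window 2 and the Mb window 4, and that of Ckb held 0. The window of Slc6a8, read but not shown, also held an E-box. An E-box stood in 65.5% of 33469 windows of the same length, so its presence is common. The E-box variant CAGCTG stood in 12.0% of all windows and was found at 2 places in Ckm and 1 in Ckmt2. CCCACCCCC, present in 3.72% of windows, was found in Mb and, on the opposite strand, in Slc6a8. The MEF2 consensus, present in 2.96% of windows, was found in Ckb, where it overlapped a TATANA match. TATANA stood in 24.2% of windows and was also found in Ckm and Mb. The CArG box was in none of the windows read for the members, and it was the least common motif over all windows. These matches describe letters in a window and show no binding. RefSeq windows matched 5 of the 7 listed genes.

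The libraries held 21457509 to 24560869 counted reads, so 3 reads, the limit that a count of 0 allows, came to 0.0985 to 0.191 CPM (reads relative to the library size after TMM, the trimmed-mean scaling of edgeR). Limits of this kind cover counting error only. The 13 mitochondrially encoded genes took 21.7%, 21.7% and 11.9% of the reads in young hearts and 6.57%, 7.99% and 10.3% in aged hearts. Within each group 1 heart stood apart. The 11 cardiomyocyte markers, among them Myh6 and Tnnt2, averaged 12.25 and 12.39 log2 CPM in young hearts 3 and 13 but 9.69 in young heart 15, and 3.71 in aged heart 3 against 8.85 and 8.42 in aged hearts 4 and 7. All 11 were still detected in aged heart 3, with 415 Myh6 reads. Over the 11 markers the summed level was 13250 to 106310 CPM in young hearts and 587 to 7544 CPM in aged hearts. Past the limits defined below were 5 of the 11, all lower, beside 19.0% of all genes tested. The 10 neutrophil markers summed to 134 to 192 CPM in young and 445 to 1481 CPM in aged hearts, highest in aged heart 3. Of 9 tested, 6 were higher, beside 13.2% of all genes tested. Most of the sum in young hearts 3 and 13 was Ncf1, at 124 and 117 CPM. Averaged on the log2 scale, the 10 markers stood at 0.14, 0.40 and 2.87 log2 CPM in young hearts and at 5.51, 3.68 and 4.73 in aged hearts. Young heart 15 thus stood apart from the other young hearts here too. The 9 macrophage markers summed to 330 to 2302 CPM in young hearts, highest in young heart 15, and to 3633 to 7011 CPM in aged hearts. Of these 9, 4 were higher, beside the same 13.2%. The members are therefore also given with hearts left out. In bulk tissue, fewer cardiomyocytes and less RNA per cardiomyocyte cannot be told apart, and the part of these markers in the members' differences was not tested.

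The comparison of aged with young donor hearts asks how donor age changes the graft's transcriptome after transplantation. Across the 13784 genes tested by edgeR's quasi-likelihood test, 0 had a Benjamini-Hochberg adjusted p under 0.05 (the smallest was 0.0916), 4731 had an unadjusted p under 0.05, and DESeq2 and limma-voom gave 3592 and 8417 genes with an adjusted p under 0.05. Leaving out young heart 15 alone moved edgeR's count from 0 to 6815 genes, among them the members Ckb (adjusted p = 0.0382) and Slc6a8 (adjusted p = 0.0151), while leaving out any other single heart gave 0. A gene was called past the limits when its fold change was above 1.5 or below 0.67 with an unadjusted p under 0.05. Of the 6 members, 2 were past the limits in the lower direction, Slc6a8 and Ckb, against 19.0% of all genes tested, and 0 in the higher direction, against 13.2%, or 32.2% in either direction. In 4 of the 6 members, Ckm, Ckmt2, Ckb and Slc6a8, every aged heart lay below every young heart, which 20.7% of all genes did, while 21.0% had every aged heart above and 41.6% were apart in either direction. Scaled by the cardiomyocyte markers instead, the median of all genes moved to 5.68 and Ckm, Ckmt2, Ckb, Slc6a8 and Mb turned to positive log2 fold changes, all below that median. Under TMM the median log2 fold change of the 6 was −2.09, and that of all genes tested was 0.016. The members together took 1.20% and 1.22% of all reads in young hearts 3 and 13, 0.344% in young heart 15, 0.0467% in aged heart 3, and 0.283% and 0.358% in aged hearts 4 and 7.

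**Figure D1:**
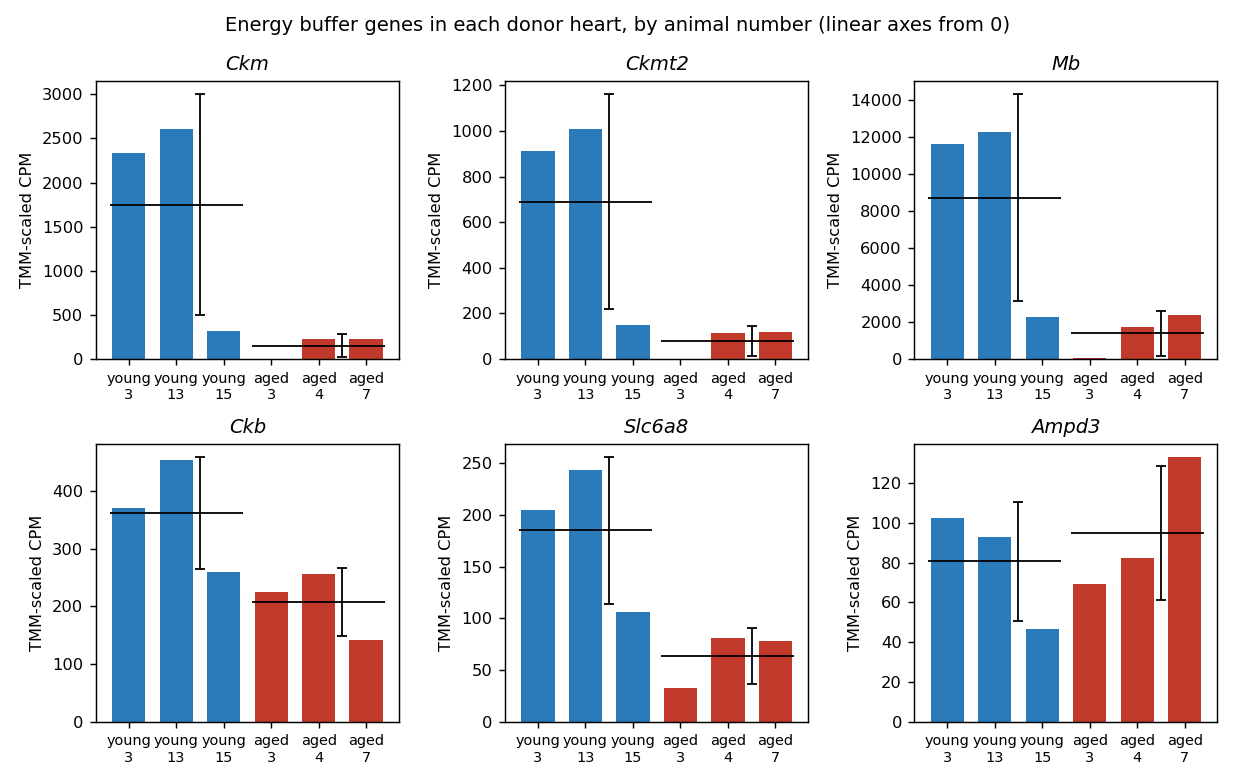
CPM of the 6 members after TMM scaling, 1 bar per heart (linear axes from 0, each panel with its own range), with a horizontal line at the group mean and a vertical bar for the SD (n = 3 per group). Ckm, Ckmt2 and Mb span more than Ckb and Ampd3 within each group, and aged heart 3 is lowest for Ckm, Ckmt2, Mb and Slc6a8.

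Ckm, the cytosolic muscle isoform of creatine kinase (ENSRNOG00000016837, chr1:80321585-80331841 on Rnor_6.0, plus strand), was among the most abundant transcripts of the young ventricle and had the widest range of the members on the log2 scale. Its level was 2334, 2603 and 315 CPM in young hearts and 3.41, 225 and 226 CPM in aged hearts. The groups did not overlap, but young heart 15 was nearer to aged hearts 4 and 7 than to the other young hearts, and aged heart 3, with 104 reads, was far below every other heart. The means were 1751 ± 1251 and 151 ± 128 CPM (SD, n = 3 each). The fitted log2 fold change of −3.53 (SE 1.49) did not pass the limits (p = 0.0525, adjusted p = 0.149 by edgeR), and the two-sided exact permutation p was 0.1, the smallest that 3 against 3 hearts allow. By FPKM, the read count per gene length and library total, Ckm ranked 38, 35 and 252 among all genes of the young hearts and 10394, 401 and 364 in the aged hearts. The log2 fold change was −2.95 without aged heart 3 and −3.99 without young heart 15, both past the limits on the unadjusted p alone.

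Ckmt2, the sarcomeric mitochondrial isoform (ENSRNOG00000055450, chr2:21422818-21437193, minus strand), followed Ckm from heart to heart. It stood at 914, 1007 and 148 CPM in young hearts and at 1.54, 116 and 120 CPM in aged hearts. As for Ckm, the groups did not overlap, young heart 15 lay just above aged hearts 4 and 7, and aged heart 3, with 47 reads, was lowest. The log2 fold change was −3.13 (SE 1.44) and did not pass the limits (p = 0.0705, adjusted p = 0.172 by edgeR), with an exact permutation p of 0.1. Without aged heart 3 it was −2.54 and without young heart 15 it was −3.56, again past the limits on the unadjusted p alone. Per length, Ckm exceeded Ckmt2 by 2.23, 2.25 and 1.86 times in young hearts and by 1.93, 1.70 and 1.64 times in aged hearts, a narrow range beside that of either gene.

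Ckb, the brain-type isoform (ENSRNOG00000010872, chr6:136142956-136145837, minus strand), varied least among the creatine kinases. Its level was 370, 454 and 260.03 CPM in young hearts and 225, 256 and 142 CPM in aged hearts. Every aged heart was below every young heart, but young heart 15 and aged heart 4 were nearly equal, and aged heart 3, lowest for the muscle isoforms, was not lowest here. The log2 fold change of −0.80 (SE 0.332) was just past the limits (p = 0.0498, adjusted p = 0.145 by edgeR, exact permutation p = 0.1). This call depended on the scaling. In FPKM, which is scaled by library totals, the groups overlapped at 200, 233 and 198 in young and 195, 203 and 115 in aged hearts, and the log2 fold change by library totals was −0.30 and not past the limits, or −0.75 relative to the all-gene median of 0.46 under that scaling. Leaving out any 1 heart other than young heart 15 also took it off the limits.

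The creatine kinase mixture therefore differed between hearts. Within the summed per-length reads of Ckm, Ckmt2, Ckb and Ckmt1, a ratio that no library scaling changes, Ckb made up 9.93%, 10.8% and 35.1% in young hearts and 97.8%, 41.9% and 28.2% in aged hearts. The share in young heart 15 fell inside the aged range, and aged heart 3 held almost no other isoform. Ckm made up 62.2%, 61.8% and 42.2% in young hearts and 1.48%, 36.6% and 44.6% in aged hearts, and Ckmt2 27.9%, 27.4% and 22.7% against 0.764%, 21.5% and 27.2%. The groups overlapped for each of these shares, which depend on each other. The differences were 37.3 percentage points for Ckb, −27.8 for Ckm and −9.52 for Ckmt2. Each had a two-sided exact permutation p of 0.2 (adjusted p = 0.2), where 0.1 is the smallest possible. Without aged heart 3 the differences were 16.4, −14.8 and −1.65 percentage points. Ckmt1, the ubiquitous mitochondrial isoform, had at most 2 reads in any heart.

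**Figure D2:**
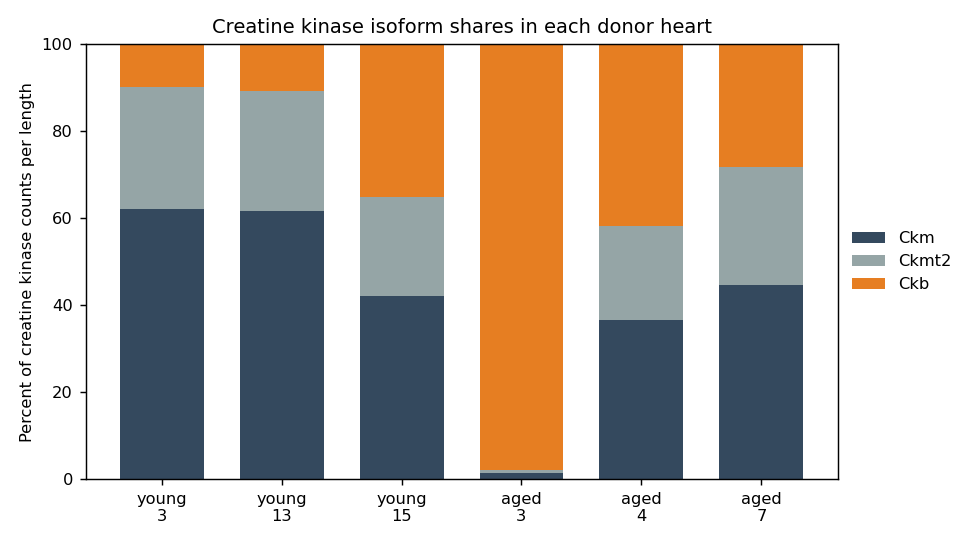
Share of each creatine kinase gene in the per-length reads of the family (percent, bars from 0 to 100) in each of the 6 hearts. Ckb takes 9.93% to 35.1% in young hearts and 28.2% to 97.8% in aged hearts, with the highest share in aged heart 3.

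Slc6a8, the plasma membrane creatine transporter (ENSRNOG00000057620, chrX:157129987-157139291, minus strand), fell by TMM and by library totals alike. It stood at 205, 244 and 106 CPM in young hearts and at 32.6, 80.9 and 77.8 CPM in aged hearts. The groups did not overlap, in FPKM either, and aged heart 3 was again lowest, although by far less than for Ckm. The log2 fold change was −1.54 (SE 0.461, p = 0.0142, adjusted p = 0.0949 by edgeR, exact permutation p = 0.1). It stayed past the limits when each heart was left out in turn, from −1.78 without young heart 15 to −1.21 without aged heart 3.

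The enzymes that make creatine differed from each other. Gamt, which methylates guanidinoacetate to creatine, fell from 118, 137 and 26.0 CPM in young hearts to 19.1, 22.8 and 17.6 CPM in aged hearts, with a log2 fold change of −2.24 (SE 0.590, adjusted p = 0.0916 by edgeR). Young heart 15 stood close to the aged hearts. Gatm, which makes guanidinoacetate, overlapped between the groups with a log2 fold change of 0.094. Of the 6 creatine genes tested (the 4 members with Gamt and Gatm), 3 were past the limits, all lower, beside 19.0% of all genes tested, and the median log2 fold change of the 6 was −1.89. Of these 3, Ckb and Slc6a8 are members already counted above, and the call of Ckb was lost by library totals and in 5 of the 6 fits with 1 heart left out.

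Mb (ENSRNOG00000004583, chr7:118101634-118108864, minus strand) was the most abundant member per length in 5 of the 6 hearts. It stood at 11658, 12268 and 2289 CPM in young hearts and at 45.0, 1744 and 2392 CPM in aged hearts. The groups overlapped, since aged heart 7 exceeded young heart 15, and aged heart 3 was far below all others. The means were 8738 ± 5594 and 1394 ± 1212 CPM (SD, n = 3 each). The log2 fold change of −2.65 (SE 1.37) did not pass the limits (p = 0.0982, adjusted p = 0.207 by edgeR, exact permutation p = 0.2), nor did it with any 1 heart left out (−3.28 to −2.07, the latter without aged heart 3). By FPKM Mb was the 9th, 9th and 13th gene of the young hearts and the 1458th, 15th and 10th of the aged hearts. Per length, Mb exceeded Ckm by 7.59, 7.17 and 11.05 times in young hearts and by 20.0, 11.8 and 16.1 times in aged hearts. Cygb, another globin, overlapped between the groups with a log2 fold change of −0.41, and Ngb had at most 4 reads. The skeletal muscle markers summed to 10.2 to 18.1 CPM in all hearts.

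Ampd3, an AMP deaminase (ENSRNOG00000018262, chr1:175586097-175630467, plus strand), was the member whose mean was not lower in aged hearts. It stood at 103, 92.7 and 46.4 CPM in young hearts and at 69.2, 82.1 and 133 CPM in aged hearts. The groups overlapped, young heart 15 being lowest and aged heart 7 highest. The log2 fold change of 0.23 (SE 0.383) did not pass the limits (p = 0.561, adjusted p = 0.674 by edgeR, exact permutation p = 0.7), and it was between −0.08 and 0.45 with 1 heart left out, at 0.43 without aged heart 3. In FPKM the aged hearts, at 21.9, 23.7 and 39.4, all stood above the young hearts, at 20.2, 17.3 and 12.9. By library totals the log2 fold change was 0.75 and not past the limits, or 0.30 relative to the all-gene median.

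Ampd2, the other deaminase found at an appreciable level, rose. It stood at 36.0, 25.7 and 53.9 CPM in young and at 65.2, 69.1 and 66.1 CPM in aged hearts, with no overlap (log2 fold change 0.79, SE 0.282, adjusted p = 0.115 by edgeR). Ampd1, the skeletal muscle isoform, had 3 to 20 reads and was not tested. Ampd3 made up 73.3%, 77.7% and 45.5% of the per-length AMP deaminase reads in young hearts and 50.5%, 53.4% and 66.1% in aged hearts. The groups overlapped, and the difference of −8.81 percentage points did not exceed the spread (two-sided exact permutation p = 0.5). With 1 heart left out it ran from −18.8 without young heart 15 to −2.71 without young heart 13.

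**Figure D3:**
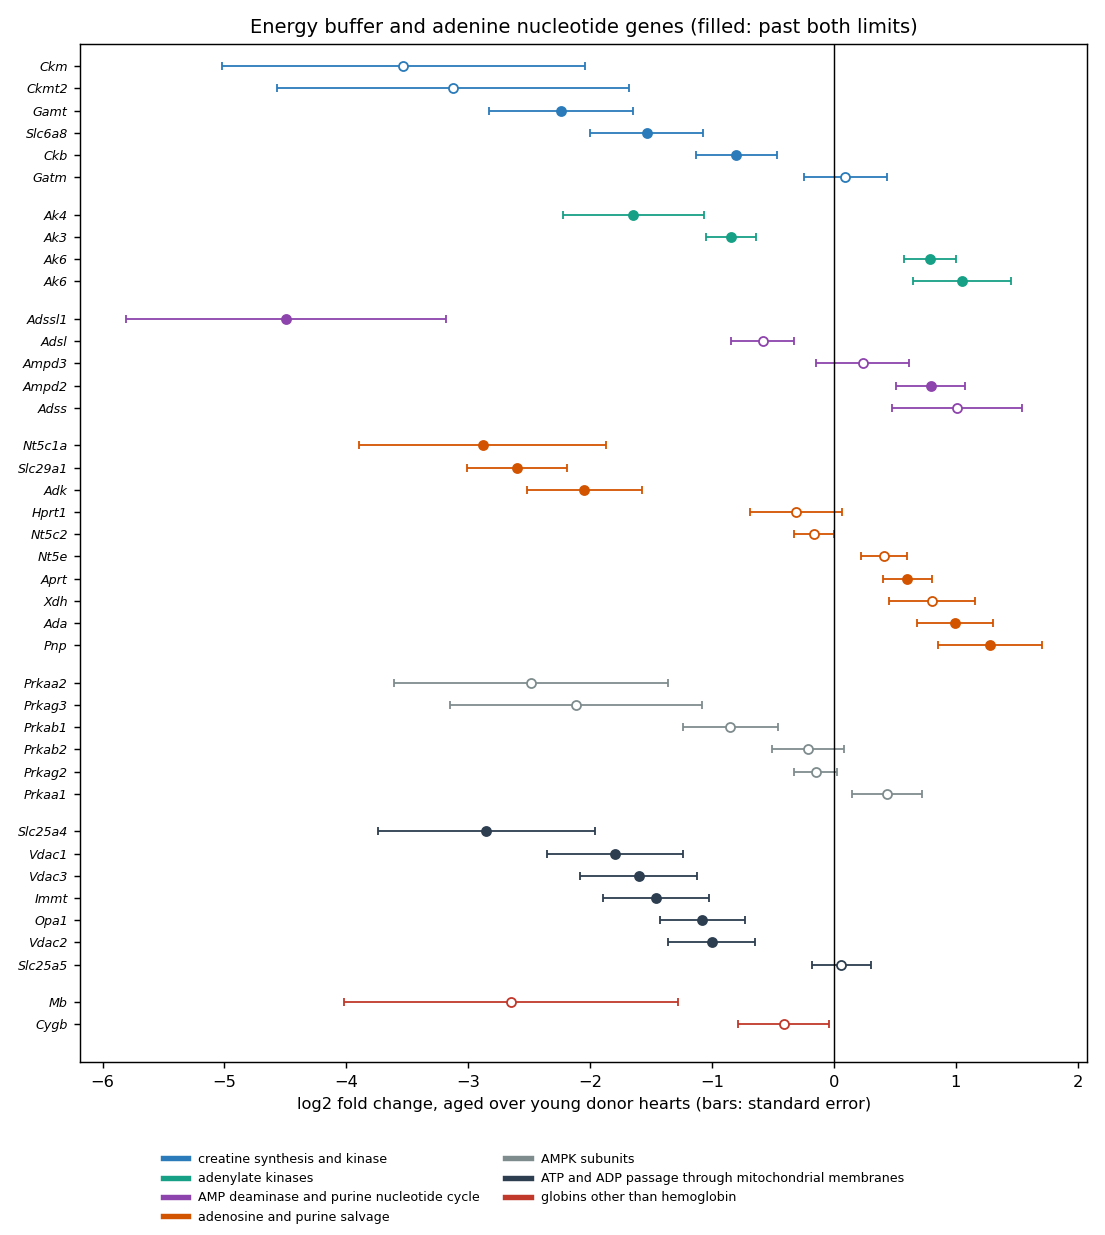
Log2 fold change of aged against young donor hearts with its SE for the members and the listed genes of the same pathways (horizontal axis, TMM scaling, 3 hearts per group), with filled points for genes past the limits and colors for the lists. Ckm lies at −3.53, Slc6a8 at −1.54 and Ampd3 at 0.23.

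By FPKM the order of the members in young hearts 3 and 13 was Mb, Ckm, Ckmt2, Ckb, Slc6a8 and Ampd3. In young heart 15 Ckb, at 198, came between Ckm at 238 and Ckmt2 at 128. In aged hearts 4 and 7 Mb was still first, at 2086 and 2933, and Ckmt2, at 104 and 111, came below Ckb in both. In aged heart 3 Ckb led at 195, Mb followed at 59.0, and Ckm and Ckmt2 were last at 2.94 and 1.53. Over the hearts of a group, the FPKM ranges of Ckm and Ckmt2 and of Ckmt2 and Ckb overlapped in young hearts. In aged hearts the ranges were 59.0 to 2933 for Mb, 2.94 to 182 for Ckm, 1.53 to 111 for Ckmt2, 115 to 203 for Ckb, 10.3 to 23.4 for Slc6a8 and 21.9 to 39.4 for Ampd3. The aged ranges of Ckm, Ckmt2 and Mb overlapped each other, and those of Ckm and Mb also that of Ckb. Those of Ckm and Ckmt2 also overlapped those of Slc6a8 and Ampd3, and those of Slc6a8 and Ampd3 each other. Such ranges compare different hearts and do not show the order within a heart. Within every aged heart Mb stood above Ckm, by 20.0, 11.8 and 16.1 times per length. Ckm stood above Ckmt2 in each, by 1.93, 1.70 and 1.64 times.

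Across the 6 hearts, log2 CPM of Ckm correlated with that of Ckmt2 at Pearson's r = 0.999 and with Mb at 0.997, and Slc6a8 ran with Ckm at 0.973. Ckb ran with Ckm at 0.57 and Ampd3 at 0.307. These values describe 6 hearts that share the groups and the hearts standing apart, and carry no test. The genes most like each member, among 9558 genes of at least 10 CPM on average, were Chchd10 (r = 0.9996) and Tesc for Ckm, Cox8b (r = 0.9997) and Me3 for Ckmt2, and Myl3 (r = 0.9989) and Rp1 for Mb, each list also holding Ckmt2 or Chchd10. For Slc6a8 they were Nnt (r = 0.9991), Svil and Ppara, for Ckb Kif26a (r = 0.9965), Ccm2l and Tmem252, and for Ampd3 Slc25a32 (r = 0.943), Usp36 and Sema4b.

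Set against the mean of the 11 cardiomyocyte markers in the same heart, the members differed in how closely they followed the markers. Relative to the markers, Ckm stood at −1.06, −1.05 and −1.39 on the log2 scale in young hearts and at −1.91, −1.03 and −0.60 in aged hearts, a difference of −0.01 (two-sided exact permutation p = 1). Ckmt2 differed by 0.26 (exact permutation p = 0.7). Without aged heart 3 these became 0.35 and 0.68 (exact permutation p = 0.1 for each, the smallest possible). Mb stood at 1.26, 1.19 and 1.47 in young and at 1.78, 1.92 and 2.80 in aged hearts, with no overlap and a difference of 0.86. The differences were 2.89 for Slc6a8, 3.64 for Ckb and 4.71 for Ampd3, with every aged heart above every young heart (exact permutation p = 0.1 for these 4, adjusted p = 0.15). Without aged heart 3 they were 1.67 for Slc6a8 and 1.92 for Ckb (exact permutation p = 0.2 for each) and 3.27 for Ampd3, and without aged heart 7 that of Mb was 0.54 (exact permutation p = 0.1 for both). For these 3 the values in aged heart 3, where the markers were lowest, were 1.32, 4.10 and 2.40, against −2.51, −0.84 and −2.49 in aged heart 4. The markers were themselves lower in aged hearts, so a member whose level changed less than theirs stands higher on this scale. Most genes did so. With edgeR scaled by these markers, 11261 of 13784 genes tested were past the limits and higher, and their median log2 fold change was 5.68. Ampd3 stood at 5.97 in that fit and the other members below the median. The share of all genes with groups apart on this scale was not computed.

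**Figure D4:**
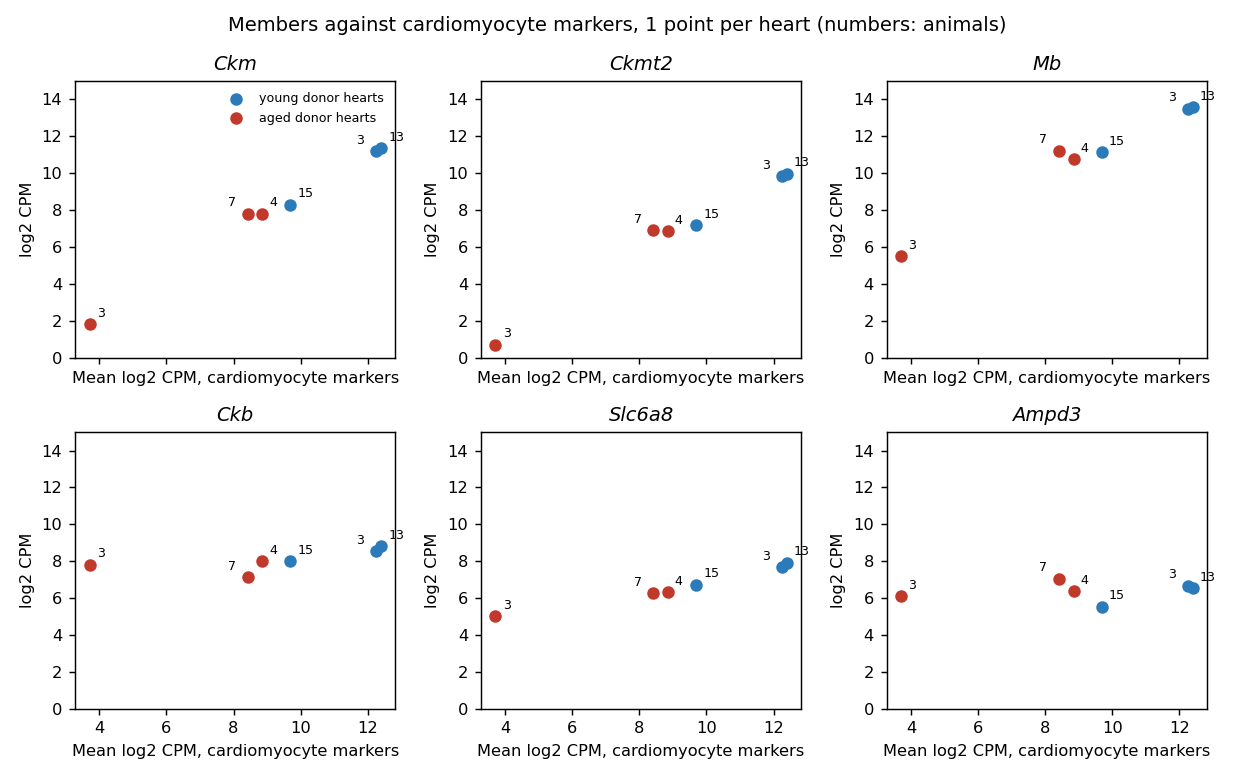
Log2 CPM of each member (vertical axis) against the mean log2 CPM of the 11 cardiomyocyte markers (horizontal axis), 1 point per heart labelled with its number. Ckm, Ckmt2 and Mb run with the markers from aged heart 3 (3.71) to young heart 13 (12.39), while Ckb and Ampd3 stay within a narrow band.

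The adenylate kinases did not move together. Ak3, which serves the mitochondrial matrix, fell, at 107, 114 and 80.7 CPM in young and 48.7, 62.3 and 57.4 CPM in aged hearts (log2 fold change −0.84, SE 0.205, adjusted p = 0.0916 by edgeR), and the groups did not overlap. Ak4, also of the matrix, fell with a log2 fold change of −1.65 (adjusted p = 0.113 by edgeR), although young heart 15 lay within the aged range. The symbol Ak6 belonged to 2 entries of the table, at log2 fold changes of 0.79 and 1.05, both past the limits and uncertain because reads of near-identical copies can be split between them. Ak5, Ak7, Ak8 and Ak9 had at most 3 reads in any heart.

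The purine nucleotide cycle returns the IMP made by AMP deaminase to AMP. Its muscle-type adenylosuccinate synthase Adssl1 fell from 456, 496 and 24.4 CPM in young hearts to 2.40, 19.6 and 21.3 CPM in aged hearts, a log2 fold change of −4.49 (SE 1.31, adjusted p = 0.0933 by edgeR). Young heart 15 lay just above the aged hearts, and the other young hearts far above. The non-muscle synthase Adss stood at 35.9, 34.1 and 125 CPM in young and at 145, 118 and 131 CPM in aged hearts and did not pass the limits (log2 fold change 1.01, adjusted p = 0.214 by edgeR). Adssl1 was 94.7%, 95.4% and 21.6% of the pair's per-length reads in young hearts and 2.28%, 19.0% and 18.7% in aged hearts, a pair chosen after its values were seen and not tested. With Adsl at −0.58 and not past the limits, 1 of the 5 genes tested in this list was higher and 1 lower. Over all genes tested these shares were 13.2% and 19.0%. The median of the list was 0.23.

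Among 10 genes of adenosine handling and purine salvage, 3 fell, beside 19.0% of all genes tested, and 3 rose, beside 13.2%, with a median log2 fold change of 0.12. Those that fell were the nucleoside transporter Slc29a1 (−2.60, SE 0.410, adjusted p = 0.0916 by edgeR), the AMP nucleotidase Nt5c1a (−2.88) and adenosine kinase Adk (−2.05). Slc29a1 stood at 65.4, 62.1 and 27.1 CPM in young and at 6.27, 11.1 and 8.20 CPM in aged hearts. Those that rose were purine nucleoside phosphorylase Pnp (1.28), adenosine deaminase Ada (0.99) and adenine phosphoribosyltransferase Aprt (0.60). Pnp stood at 72.9, 68.5 and 170 CPM in young and at 312, 257 and 185 CPM in aged hearts, highest in aged heart 3, and the Ada groups overlapped. Xanthine dehydrogenase Xdh was apart between the groups at 0.80 but not past the limits, and Nt5e (0.41), Nt5c2 (−0.16) and Hprt1 (−0.31) overlapped.

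Of the genes that pass ATP and ADP through the mitochondrial membranes or shape the cristae, 6 of 7 fell and 0 rose, beside 19.0% lower and 13.2% higher among all genes tested, with a median log2 fold change of −1.46. The median of the 11 cardiomyocyte markers was −3.24, and its part in this difference was not tested. Slc25a4, the heart and muscle ADP/ATP carrier, fell from 6700, 6972 and 1155 CPM in young hearts to 241, 953 and 861 CPM in aged hearts (−2.85, SE 0.892, adjusted p = 0.0982 by edgeR). Vdac1 (−1.80), Vdac3 (−1.60), Immt (−1.46), Opa1 (−1.08) and Vdac2 (−1.003) fell as well, with overlap for Vdac2. The carrier Slc25a5, which other tissues use, stood at 365, 389 and 382 CPM in young and 378, 481 and 325 CPM in aged hearts, a log2 fold change of 0.06. None of the 6 subunits tested of AMP-activated protein kinase, the sensor of AMP, passed the limits (median −0.53). Its muscle-rich catalytic subunit Prkaa2 stood at 93.3, 148 and 47.8 CPM in young and at 0.722, 23.7 and 27.1 CPM in aged hearts (−2.49, adjusted p = 0.167 by edgeR), and Prkag3 (−2.12) was likewise apart but not past the limits.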

How the data were processed

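RNA-Seq of 6 transplanted rat donor hearts gave 1 table of genes by hearts. The authors deposited raw read counts per gene, with no normalization, and FPKM values, which equal the count divided by gene length and library total in 133499 of 133500 values (relative tolerance 1e-04). The submitters' processing notes name HISAT2 2.0.5, StringTie 1.3.3b, featureCounts 1.5.0-p3, DESeq2 1.16.1 and GATK 3.7 and the build Rnor_6.0, without parameters. The use of strand is not given in the sources used here, so reads of overlapping genes cannot be told apart. Pathway columns of the table were not used.

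The test was that of edgeR 4.0.16 under R 4.3.3 (filterByExpr, TMM, quasi-likelihood test, no covariates), with Benjamini-Hochberg adjustment over all 13784 genes tested. SEs were obtained as the fitted log2 fold change over √F. Log2 CPM used a prior count of 2. DESeq2 1.42.0, limma 3.58.1 (voom with quality weights), other scalings, filters and left-out hearts were alternatives. Single values were compared by two-sided exact permutation over 20 arrangements. Promoters were read from RefSeq (GRCr8) in Python 3.11.15, and coordinates of the 2 builds were not mixed.

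The members and lists were chosen with earlier results of these data known. Named were the members, list genes past the limits or with groups apart, genes of the members' enzyme families and the 3 most correlated genes per member. 1 of the listed genes is not reported here.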

Additional observations from a re-analysis of the deposited data

How the results depend on the processing

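Under DESeq2 size factors and the other filters on low counts, the lower members numbered 2, as reported, although with no filter they were Ckm and Slc6a8 in place of Ckb and Slc6a8. Library totals alone left 1 of the 6 members lower (Slc6a8), with 1440 genes lower and 3147 higher, against 2621 and 1815 by TMM, so that 68.6% instead of 40.9% of the genes past the limits were higher. That scaling moved the median of all genes to 0.46. Over all genes, DESeq2's Wald test and limma-voom gave 2921 and 3815 genes lower and 2148 and 3688 higher. Each called 5 members lower (all but Ampd3). Of these 5, DESeq2 gave an adjusted p under 0.05 to Ckm, Ckmt2 and Slc6a8, and limma-voom to all 5. Scaling by the cardiomyocyte markers moved the median of all genes to 5.68, with 0 members lower and 2 higher (Ckb and Ampd3) and 1 gene lower and 11261 higher. The log2 fold changes there were 0.071 for Ckm, 0.38 for Ckmt2, 5.27 for Ckb, 3.76 for Slc6a8 and 0.94 for Mb, each below that median. With the marker mean as a covariate, 354 genes were lower and 302 higher. Of the members, 0 were lower and 1 higher (Ckmt2, adjusted p = 0.883 by edgeR). Slc6a8 stood at −0.27 and Ckb at −0.65, while Ckm, Ckmt2 and Mb stood at 0.89, 1.17 and 1.21. The cause of these reversals was not tested. Leaving out 1 heart gave 1 to 4 members lower, most without young heart 15, and 1615 to 3412 genes lower and 817 to 3802 higher, the largest counts again without young heart 15. Ampd3 ran from −0.083 to 0.45, Ckm relative to the markers from −0.30 to 0.35 and Ckmt2 from −0.063 to 0.68. Leaving out both young heart 15 and aged heart 3, chosen after their levels were seen, gave 5 members lower. Over all genes it gave 3632 lower and 3764 higher, and its p-values are no support. Of 220 values recomputed, 155 were scored the same, 26 stronger, 25 weaker and 14 reversed. The 220 include counts of members and of genes and the fit without young heart 15 and aged heart 3. A count scored the same could still differ, as 3815 genes lower by limma-voom against 2621. No paired analysis was possible because the groups share 1 number, which marks different animals. With 3 hearts per group the exact test cannot go below 0.1, and in aged heart 3 Ckmt2 rests on 47 reads.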

Other observations

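Other cell type lists were read beside the members. Of 3 atrial markers tested, 0 passed the limits, and their sum was 44.7 to 394 CPM in young hearts and 5.6 to 1516 CPM in aged hearts, highest in aged heart 4. The red blood cell markers summed to 728 to 5781 CPM in young and 246 to 3096 CPM in aged hearts, with 1 of 6 lower and no gene apart between the groups. Of 6 endothelial markers 0 passed the limits (median log2 fold change −0.25), and of 6 fibroblast markers 2 were lower (median −0.73). Of 5 smooth muscle markers 1 was lower, and of 5 Schwann cell and nerve markers 1 was lower. Of 5 T cell markers 1 was higher, and of 5 skeletal muscle markers 0 passed. Beside these counts, 19.0% of all genes tested were lower and 13.2% higher.

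The muscle and general isoforms of 3 enzyme or carrier pairs were also set side by side, chosen after their values were seen and with no test. Slc25a4 was 95.6%, 95.5% and 78.1% of its pair with Slc25a5 per length in young hearts and 42.9%, 70.0% and 75.7% in aged hearts. Prkaa2 was 81.5%, 87.1% and 60.1% of its pair with Prkaa1 in young hearts and 1.80%, 51.2% and 41.0% in aged hearts. In both pairs, as for Adssl1 with Adss, every aged heart lay below every young heart, and aged heart 3 was lowest. The creatine kinases Ckm and Ckb did not separate in this way. Per length, Ckm over Ckb was 6.26, 5.69 and 1.20 in young hearts and 0.0151, 0.873 and 1.58 in aged hearts, so the groups overlapped.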
